A study of Schizosaccharomyces pombe with 9 samples.

Results

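SWI/SNF and RSC are a pair of ATP-driven chromatin remodelling complexes, and 10 genes that encode their subunits were followed in the fission yeast Schizosaccharomyces pombe. The 10 genes were listed by systematic ID, not picked by their levels, from 5129 genes in the count table. Earlier results of these data were known when they were chosen. All 10 were among the 4913 genes with enough counts to be tested. Poly(A)-selected RNA was sequenced from 9 libraries, 3 from each of 3 genotypes. The first genotype was tra1-AA, an allele of tra1 for which no sequence change is stated. The second was tra1D, in which tra1 is deleted, and the third was wild type (WT). All cultures were grown in YES, a rich medium, to mid-logarithmic phase, and each genotype was represented by a single strain number. Whether the replicates of a genotype were grown separately is not stated, and p-values here reflect only how far its libraries differ, which may be technical variation.

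A remodeller uses ATP hydrolysis to slide, evict or restructure nucleosomes. In fission yeast, SWI/SNF is built around the ATPase Snf22 and RSC around the related ATPase Snf21, and the complexes share a set of core subunits. tra1 encodes the large pseudokinase subunit of SAGA, a transcriptional co-activator; in budding yeast, SAGA and SWI/SNF act at many of the same promoters. The comparisons ask whether the transcripts of remodeller subunits differ in cells that lack tra1 or carry its tra1-AA allele.

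The genes fall into 3 sets by the annotated products. snf22 (SPCC1620.14c), snf5 (SPAC2F7.08c) and sol1 (SPBC30B4.04c) encode subunits of SWI/SNF alone. snf21 (SPAC1250.01) encodes the ATPase of RSC. The other 6, arp42 (SPAC23D3.09), arp9 (SPAC1071.06), ssr1 (SPAC17G6.10), ssr2 (SPAC23H3.10), ssr3 (SPAC23G3.10c) and ssr4 (SPBP23A10.05), encode subunits of both complexes. In the reference annotation (RefSeq, ASM294v3) 7 of the 10 lie on chromosome I, ssr4 and sol1 on chromosome II and snf22 on chromosome III. Their coding sequences span from 1188 bases in ssr4 to 5043 bases in snf22.

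snf21 and snf22 are paralogs, so their most alike stretches bear on how reads could be assigned. BLAST aligned their coding sequences over 1558 bases at 73.0% identity, and no member had a hit of at least 50 bases and 95% identity in another coding sequence. The longest run of identical bases in the ATPase pair was 20. Of all ungapped pairs of 50 bases, the length of 1 read, none had fewer than 3 differences, 1 pair had 3 and 7 had 4. The closest pair is shown, in coding direction from ASM294v3 (RefSeq): bases 1789 to 1838 of the snf21 coding sequence on chromosome I and bases 3145 to 3194 of the snf22 coding sequence on chromosome III (both genes lie on the minus strand). Capitals mark the 3 positions at which the genes differ.
snf21: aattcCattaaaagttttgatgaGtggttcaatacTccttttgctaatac
snf22: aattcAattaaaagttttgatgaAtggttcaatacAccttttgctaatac
The other related products shared shorter runs: ssr1 and ssr2 had a longest run of 15 bases, and arp42 and arp9 one of 10.

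Library totals lay between 5738138 and 8101004 counts. Reads of tra1 itself numbered 608, 570 and 470 in tra1-AA, then 5, 2 and 2 in tra1D, against 771, 704 and 561 in WT, so its reads were nearly absent from the libraries labelled tra1D. In tra1-AA its log2 fold change of -0.25 did not pass (edgeR adjusted p 0.0998). The 10 genes had 189 to 1100 counts per library, with snf5 the lowest (189 to 255) and the other 9 at 446 or more. The titles of the tra1D and WT libraries carry a re-analysis mark that tra1-AA lacks. In tra1-AA against WT and in tra1-AA against tra1D the mark and the genotype therefore cannot be told apart. The comparison of tra1D against WT lies within the mark. Among genes of mating, ste11, mei2, map3 and mam2 summed to 104.6 to 131.5 CPM (read counts scaled to a common library size, normalised by TMM) in tra1-AA, 130.8 to 184.6 CPM in tra1D and 71.5 to 87.0 CPM in WT. Against WT, the log2 fold changes in tra1-AA and tra1D were 0.85 and 1.14 for ste11 and 1.18 and 1.73 for mam2. They were 0.38 and 1.18 for mei2 and 0.13 and 0.14 for map3. Both ste11 (edgeR adjusted p 0.00155 and 0.000209) and mam2 (0.0487 and 0.00912) passed in each mutant. mei2 passed in tra1D (edgeR adjusted p 0.0204) but not in tra1-AA (0.407), and map3 passed in neither (0.494 in tra1-AA and 0.488 in tra1D). The part of these genes in the results below was not tested. A level here is a share of the RNA of a culture, in which fewer cells that express a gene and less RNA per cell cannot be told apart.

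In all 3 genotypes the shared subunits had the higher transcript levels for their coding length. Across all 9 libraries the 6 shared genes lay between 55.3 and 94.3 CPM per coding kilobase and the 4 genes of a single complex between 14.1 and 46.7. The sets did not overlap by this measure. Per kilobase of annotated transcript they did: WT means were 29.4 to 67.0 CPM in the shared genes and 16.03 to 35.4 CPM in the others. In WT, ssr2 averaged 75.6 ± 3.22, arp9 73.7 ± 2.49, arp42 73.7 ± 1.28, ssr4 71.2 ± 0.946, ssr1 70.8 ± 3.79 and ssr3 63.0 ± 8.34 CPM per coding kilobase (SD, n = 3). The ranges of neighbours in that order overlapped from ssr2 down to ssr3. Below ssr3 came a gap of 1.64-fold to sol1, at 38.3 ± 2.08, whose range overlapped that of snf21, at 36.6 ± 1.86. snf22 followed at 22.8 ± 2.19 and snf5 at 16.1 ± 1.90, each separated from the gene above it.

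**Figure D1:**
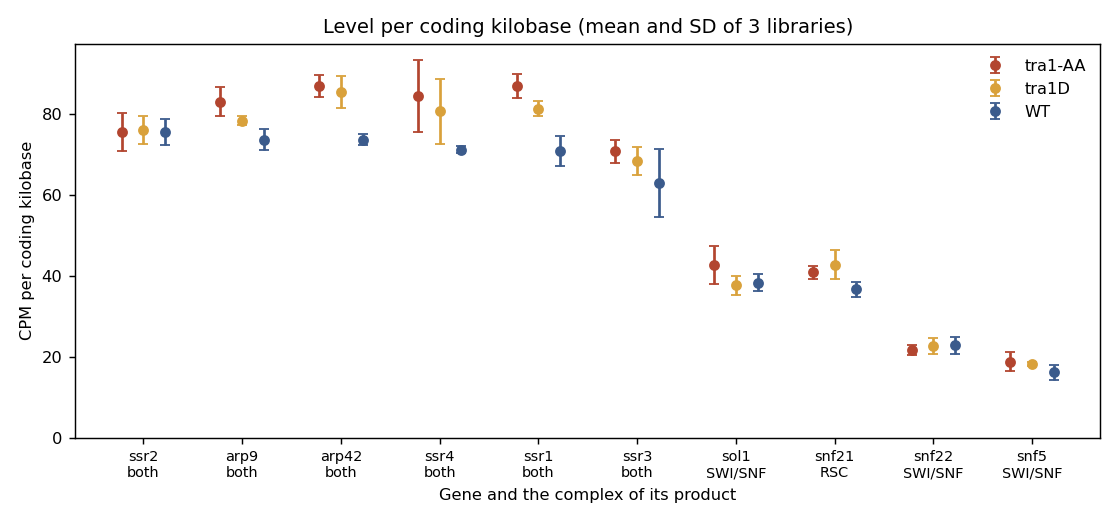
Level of each gene in CPM per coding kilobase (vertical axis), as the mean and SD of 3 libraries in tra1-AA, tra1D and WT, with genes ordered by their WT level and labelled by the complex of the product. The 6 genes of both complexes lie between 55.3 and 94.3 in every library and the other 4 between 14.1 and 46.7. Per kilobase of annotated transcript the WT means of these sets overlap.

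Against the 4911 tested genes with a coding length, ssr2 stood at percentile 56.5 of the WT level and snf5 at percentile 9.77. The gap between shared and single-complex genes rests on coding length as the divisor. Per kilobase of the annotated transcript, arp42 (2852 bases, of which 1275 are coding) and ssr3 (2740 bases, of which 1278 are coding) averaged 32.9 and 29.4 CPM in WT, inside the range of 16.03 to 35.4 of the single-complex genes. The order within the mutants was close to that in WT at its lower end: snf22 and snf5 were the lowest of the 10 genes in all 3 genotypes. At the upper end it differed, with ssr1 highest in tra1-AA (86.9 ± 2.90 CPM per coding kilobase), arp42 highest in tra1D (85.5 ± 3.96) and ssr2 highest in WT, though neighbours there were not separated. Among the single-complex genes, sol1 averaged 42.7 ± 4.70 CPM per coding kilobase in tra1-AA and 37.6 ± 2.33 in tra1D, and snf21 averaged 40.8 ± 1.64 in tra1-AA and 42.8 ± 3.60 in tra1D (SD, n = 3 each). These exchanged places between the mutants, with overlapping ranges in each. snf22 averaged 21.7 ± 1.31 in tra1-AA and 22.7 ± 1.95 in tra1D, and snf5 averaged 18.7 ± 2.34 in tra1-AA and 18.2 ± 0.504 in tra1D. The ranges of snf22 and snf5 overlapped in tra1-AA and were separate in tra1D.

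The SWI/SNF ATPase gene snf22 passed in neither mutant, with estimates close to 1-fold. It had 114.3, 101.9 and 112.1 CPM in tra1-AA, 104.6, 114.6 and 124.2 CPM in tra1D, and 106.8, 110.6 and 127.5 CPM in WT. The ranges of the 3 genotypes overlapped. The fold change was 0.953 in tra1-AA against WT (95% interval 0.835 to 1.09) and 0.996 in tra1D against WT (95% interval 0.873 to 1.14). The quasi-likelihood test of edgeR gave Benjamini-Hochberg adjusted p = 0.625 and 0.974.

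The RSC ATPase gene snf21, which is essential in fission yeast, stood higher in both mutants than in WT without passing the test. It had 146.8, 141.2 and 153.0 CPM in tra1-AA, 151.4, 142.4 and 168.0 CPM in tra1D, and 131.9, 125.2 and 138.6 CPM in WT. Every mutant library was above every WT library. The log2 fold change was 0.16 in tra1-AA (SE 0.07, edgeR adjusted p 0.169) and 0.22 in tra1D (SE 0.07, edgeR adjusted p 0.0707).

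The ATPase pair was also set against itself within each library, a quantity that does not depend on library size. snf22 made up 35.7%, 34.0% and 34.4% of the summed snf22 and snf21 level per coding kilobase in tra1-AA, 33.0%, 36.5% and 34.6% in tra1D, and 36.6%, 38.7% and 39.6% in WT. All mutant libraries lay below all WT libraries, by a narrow margin between the second tra1D and the first WT library. The mean share was 34.7 ± 0.910% in tra1-AA and 38.3 ± 1.54% in WT (SD, n = 3 each), a difference of -3.62 percentage points, and the difference of tra1D (34.7 ± 1.73%) from WT was also -3.62 percentage points (SD, n = 3). The exact two-sided permutation test gave p = 0.1 for each, the smallest that 3 against 3 libraries allow (0.15 adjusted over 3 pairs), and p = 1.0 between the mutants.

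**Figure D2:**
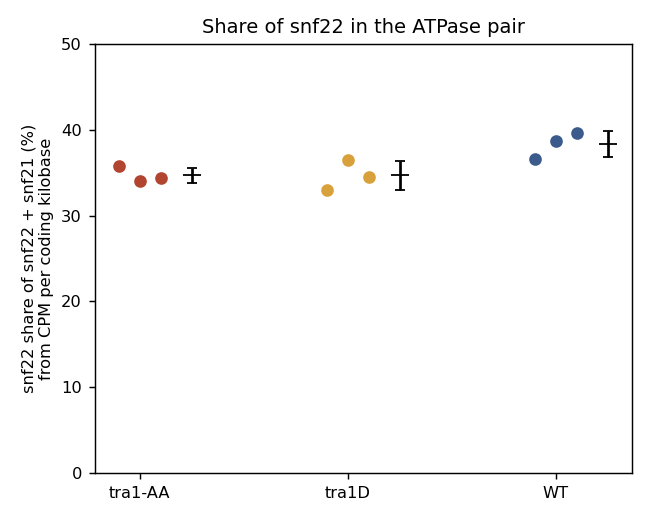
Share of snf22 in the summed level of snf22 and snf21 (percent, from CPM per coding kilobase), with 1 point per library and the mean and SD of each genotype beside them. The tra1-AA libraries lie at 34.0 to 35.7%, the tra1D libraries at 33.0 to 36.5% and the WT libraries at 36.6 to 39.6%.

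snf5 and sol1, the other members in SWI/SNF alone, did not pass in any comparison. snf5, a core subunit related to human SMARCB1, was the lowest member: it had 35.5, 28.8 and 36.5 CPM in tra1-AA, 33.4, 33.0 and 31.7 CPM in tra1D, and 25.4, 29.3 and 32.2 CPM in WT. Its mutant and WT ranges overlapped, and its log2 fold changes of 0.22 in tra1-AA and 0.18 in tra1D had 95% intervals from -0.05 to 0.49 and from -0.09 to 0.45. sol1, related to the budding yeast subunit Swi1, had 116.6, 96.9 and 119.2 CPM in tra1-AA, 91.7, 97.9 and 103.8 CPM in tra1D, and 102.2, 103.0 and 93.3 CPM in WT. The mutants differed from each other by more in sol1 than in any other member, with log2 fold changes of 0.15 for tra1-AA against WT, -0.03 in tra1D against WT and 0.18 in tra1-AA against tra1D (95% interval -0.0094 to 0.37). The unadjusted p of this last difference, 0.0605, was the lowest of the 10 members between the mutants, and it did not pass (edgeR adjusted p 0.999).

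The 2 members that rose, ssr1 and arp42, are among the 6 of the shared core. Of all tested genes 7.94% rose in tra1-AA and 5.17% in tra1D. The largest log2 fold change of the members in tra1D, 0.22, was that of snf21 of RSC, which did not pass. ssr1 encodes a SWIRM-domain subunit of the Swi3 and Rsc8 family, and it had 136.6, 133.6 and 142.7 CPM in tra1-AA, 125.4, 129.6 and 131.1 CPM in tra1D, and 113.9, 105.5 and 117.1 CPM in WT. The genotypes formed 3 separate ranges, with tra1-AA highest and WT lowest. ssr1 rose 1.23-fold in tra1-AA against WT (95% interval 1.12 to 1.35; log2 fold change 0.30, SE 0.06, edgeR adjusted p 0.00861), and the call was kept without any 1 of the 6 libraries. In tra1D against WT (95% interval of the fold 1.045 to 1.26; log2 fold change 0.20, SE 0.06) it did not pass (edgeR adjusted p 0.0607). The difference between the mutants, 0.10 on the log2 scale for tra1-AA against tra1D, did not pass either (edgeR adjusted p 0.999), so the effects are not shown to differ.

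arp42 encodes an actin-related protein of the shared core and rose in both mutants. It had 107.3, 114.4 and 110.6 CPM in tra1-AA, 113.3, 110.2 and 103.4 CPM in tra1D, and 94.9, 94.8 and 92.0 CPM in WT. Every mutant library exceeded every WT library, and the WT libraries lay close together. The level was 17.9% higher in tra1-AA (log2 fold change 0.24, 95% interval 0.10 to 0.37, edgeR adjusted p 0.025) and 16.1% higher in tra1D (log2 fold change 0.21, 95% interval 0.08 to 0.35, edgeR adjusted p 0.0463). In tra1-AA the call was kept in 1 of 6 fits that left out a library (the one without tra1-AA replicate 1), with adjusted p up to 0.124 (without tra1-AA replicate 2). In tra1D it was kept in none of 6, with adjusted p up to 0.137 (without tra1D replicate 2), and DESeq2 (adjusted p = 0.0891) and limma-voom (0.0561) did not call it.

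**Figure D3:**
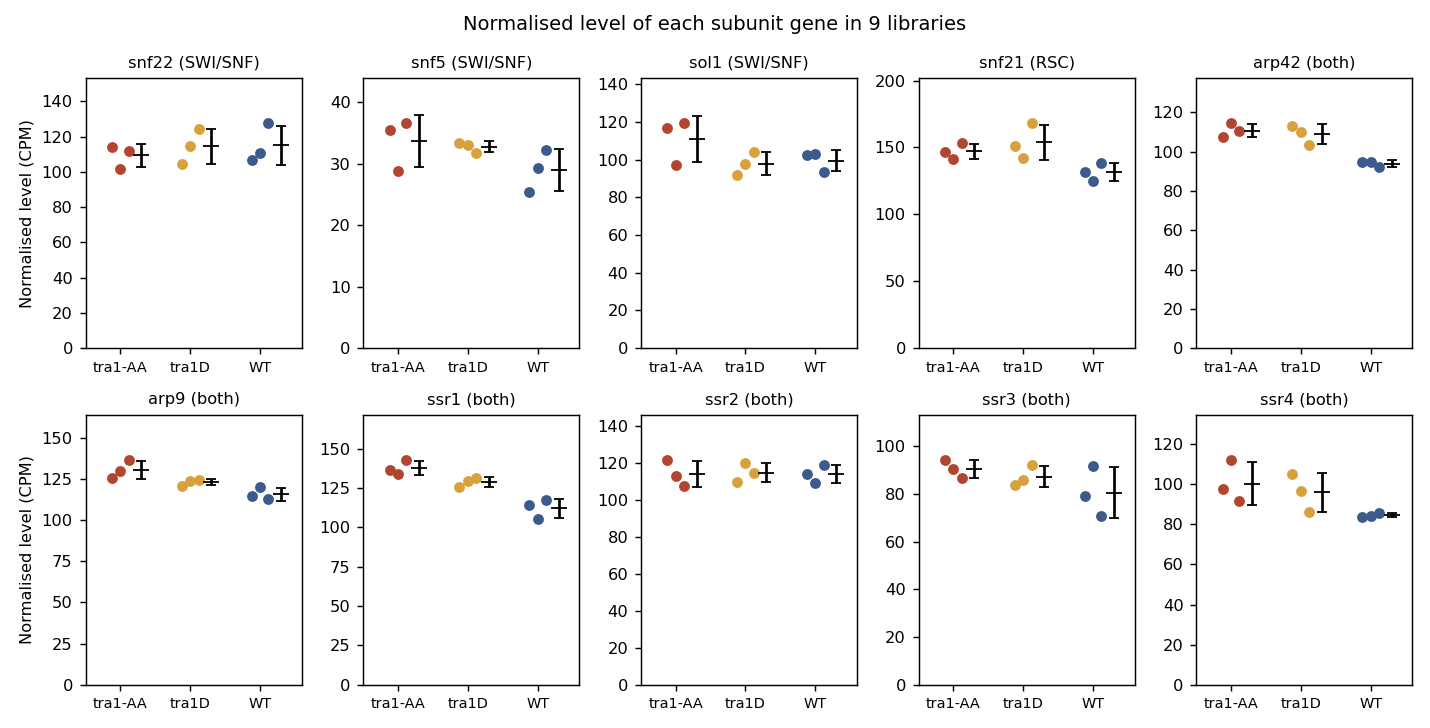
Normalised level in CPM (vertical axes, each from 0) of the 10 genes in every library, with the mean and SD of 3 libraries beside the points; panel titles give the complex of the product. For ssr1, arp42, snf21, arp9 and ssr4 every tra1-AA and tra1D library lies above every WT library, while snf22, ssr2, ssr3, snf5 and sol1 overlap.

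The remaining shared subunits did not pass. arp9, the other actin-related subunit, had 125.4, 129.6 and 136.5 CPM in tra1-AA, 121.0, 124.0 and 124.4 CPM in tra1D, and 114.6, 120.2 and 112.6 CPM in WT, 3 ranges in the same order as for ssr1 and without overlap. Its log2 fold change was 0.17 in tra1-AA (SE 0.06, edgeR adjusted p 0.0726) and 0.09 in tra1D (SE 0.06, edgeR adjusted p 0.37). ssr4 had 97.5, 112.0 and 91.4 CPM in tra1-AA, 105.0, 96.6 and 86.0 CPM in tra1D, and 83.8, 84.0 and 85.9 CPM in WT. Its WT libraries were tight (coefficient of variation 1.33%) and its mutant libraries spread (10.54% in tra1-AA and 9.95% in tra1D), with the third tra1D library only just above WT. Its log2 fold changes of 0.25 in tra1-AA and 0.18 in tra1D gave BH-adjusted p = 0.086 and 0.222 in edgeR.

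ssr2 and ssr3 overlapped between all genotypes. ssr2, which belongs to the same SWIRM-domain family as ssr1, had 121.7, 113.1 and 107.6 CPM in tra1-AA, 109.7, 120.3 and 114.8 CPM in tra1D, and 114.2, 109.5 and 119.3 CPM in WT. Its log2 fold change was -0.0018 in tra1-AA (95% interval -0.15 to 0.15) and 0.0083 in tra1D (95% interval -0.14 to 0.16). ssr3, of the Swp73 and Rsc6 family, had 94.2, 90.3 and 86.9 CPM in tra1-AA, 83.8, 85.7 and 92.4 CPM in tra1D, and 79.0, 91.8 and 70.7 CPM in WT, the widest WT spread of the 10 genes (coefficient of variation 13.2%). Its log2 fold changes of 0.17 and 0.11 did not pass (edgeR adjusted p 0.241 and 0.455).

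Of the 10 genes, in tra1-AA against WT 2 rose, none fell and 8 did not pass, where 15.9% of all tested genes were called, 7.94% higher and 7.96% lower. At an unadjusted p under 0.05 there were 4 members, against 30.5% of all genes. In tra1D against WT 1 rose, none fell and 9 did not pass, where 11.5% of all tested genes were called, 5.17% higher and 6.35% lower. At an unadjusted p under 0.05 there were 3 members, against 26.5% of all genes. No member passed between the mutants in edgeR, in DESeq2 or in limma-voom, and 0 had an unadjusted p under 0.05 there in each tool. In edgeR 0.0407% of all genes were called between the mutants and 3.81% had an unadjusted p under 0.05. The 5 members whose ranges lay above WT were the same in tra1-AA (19.8% of all genes) and in tra1D (17.6% of all genes). These comparisons share their WT libraries. Between the mutants, arp9 and ssr1 had tra1-AA ranges above tra1D, as did 4.66% of all genes. How many of all genes formed 3 separate ranges, as ssr1 and arp9 did, was not counted.

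Most log2 fold changes of the members, called or not, were above 0, which was not tested as a list. The log2 fold change was above 0 in 8 members in tra1-AA, where 51.1% of all tested genes were above 0, and in 8 members in tra1D, where the share was 50.7%. Between the mutants 7 members were above 0, against 52.6% of all genes. The median log2 fold change of the members was 0.17 in tra1-AA and 0.15 in tra1D, against 0.0061 and 0.0039 over all tested genes. The median size of change without regard to sign was 0.17 and 0.15 in the members, against 0.14 and 0.13 over all tested genes. With library totals alone as the scaling, which moved the median of all genes to 0.05 in tra1-AA and 0.08 in tra1D, the members' medians were 0.22 in both and 9 and 10 of them were above 0.

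**Figure D4:**
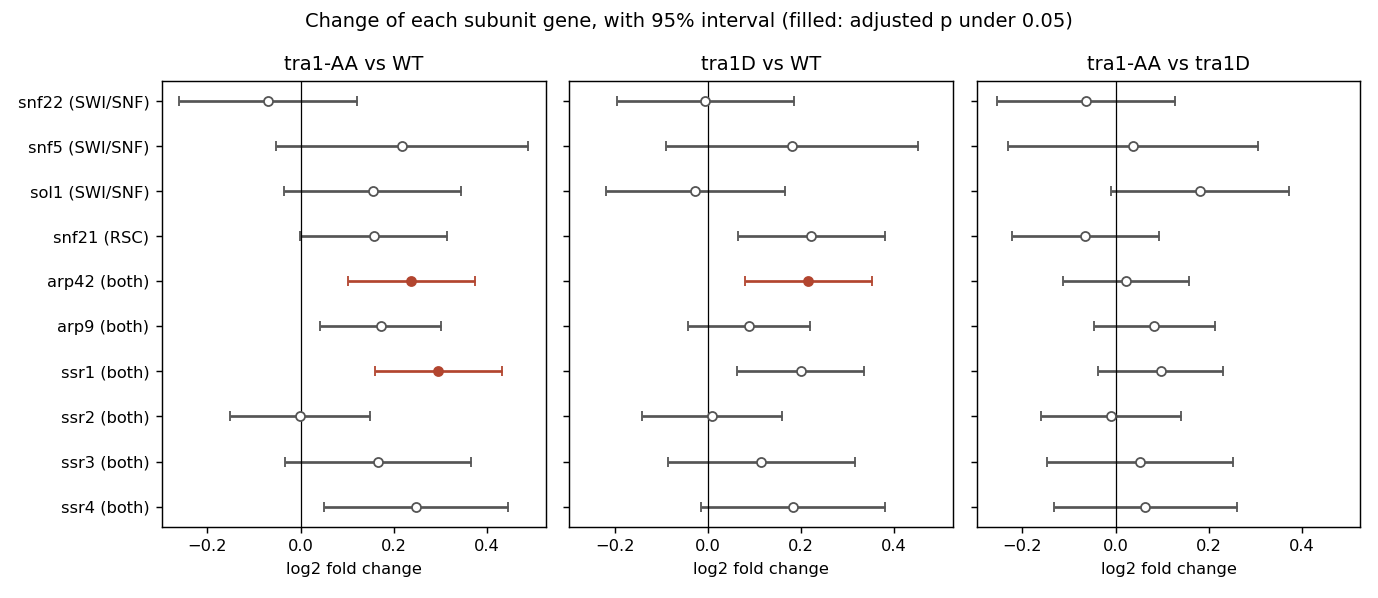
Log2 fold change of each gene (horizontal axis) with its 95% interval from the edgeR fit, in tra1-AA against WT, tra1D against WT and tra1-AA against tra1D; filled points passed an adjusted p of 0.05. ssr1 (0.30) and arp42 (0.24) are filled in tra1-AA and arp42 (0.21) in tra1D, and all intervals between the mutants include 0.

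The authors' deposited table for tra1-AA also gave ssr1 and arp42 the lowest p of the 10. There ssr1 had a log2 fold change of 0.27 and an adjusted p of 0.0284, and arp42 had 0.21 and 0.109, so ssr1 alone was called there, among 625 genes called in that table. In the authors' deposited table for tra1D no member was among the 570 genes called; the lowest adjusted p was 0.154, for arp42, followed by 0.157 for snf21. The unadjusted p in the authors' deposited table for tra1D was under 0.05 for 3 members, arp42 (0.029), snf21 (0.0297) and ssr1 (0.0361).

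Annotated transcripts overlap every member on the opposite strand, and whether the counting used strand is not stated, so reads of a member and its antisense partner may not be separated. For arp42 the partner is usp108 (SPAC23D3.08), which covers 92.4% of the annotated arp42 transcript. The usp108 log2 fold changes were 0.10 in tra1-AA and 0.09 in tra1D, and neither passed (edgeR adjusted p 0.378 and 0.451). arp42 also shares 37 bases with pup1 (SPAC23D3.07), with values of 0.25 in tra1-AA (edgeR adjusted p 0.035) and 0.22 in tra1D (edgeR adjusted p 0.0741). ssr1 is overlapped by a pair of annotated non-coding RNAs, over 786 and 352 bases of its transcript of 1673 bases, and by ghs2 (SPAC17G6.11c) over 60 bases. ghs2 fell by 0.26 on the log2 scale in tra1-AA (edgeR adjusted p 0.0217). arp9 is overlapped by 3 annotated non-coding RNAs, over 470, 461 and 198 bases of 1878, and over 101 bases by the ribosomal protein gene rps1502 (SPAC1071.07c), which averaged 1528 CPM in tra1-AA, 1533 CPM in tra1D and 1686 CPM in WT and did not pass in either mutant.

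ssr3 shares 53.9% of its transcript with taf4, a subunit gene of the general factor TFIID. taf4 rose by 0.23 on the log2 scale in tra1-AA (edgeR adjusted p 0.0328) while ssr3 did not pass. DESeq2 did not call taf4 there (adjusted p 0.0598). ssr4 shares 78.2% with SPBP23A10.17, whose log2 fold change was -0.08 in tra1-AA and 0.04 in tra1D, neither past the threshold. snf22 shares 13.4% with SPCC1620.13, which rose by 0.51 in tra1-AA (edgeR adjusted p 0.0331) against a snf22 value of -0.07. With a library left out, the tra1-AA call of ghs2 was kept in 3 of 6 fits (adjusted p up to 0.0641, without tra1-AA replicate 3). Those of pup1 (up to 0.0989, without WT replicate 2), taf4 (up to 0.117, without tra1-AA replicate 2) and SPCC1620.13 (up to 0.134, without WT replicate 1) were kept in 2 of 6 each. In tra1D edgeR called none of taf4, SPCC1620.13 and ghs2 (adjusted p 0.187, 0.171 and 0.188). The partners of snf21, snf5, ssr2 and sol1 are annotated non-coding RNAs. Non-coding partners were not analysed here. The part of these partners in the members' values was not tested.

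Over the 9 libraries the genes whose levels moved most like arp42, by the root mean square difference of centred log2 CPM among 4897 protein-coding genes, were dbp5 (0.0276), rvb2 (0.0295) and tad2 (0.0303). For ssr1 they were pwi1 (0.0386), prp10 (0.0408) and wdr44 (0.0433). dbp5 encodes an RNA helicase of mRNA export and prp10 a splicing factor.

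Of the 9 other subunits of SWI/SNF and RSC, snf59 fell in both mutants and the remaining 8 did not pass in either, so 11.1% were called in each, against 15.9% of all tested genes in tra1-AA and 11.5% in tra1D. snf59 (SPBC26H8.09c), a subunit of SWI/SNF, averaged 61.7 ± 0.867 CPM in tra1-AA, 62.1 ± 3.35 CPM in tra1D and 83.5 ± 5.22 CPM in WT (SD, n = 3 each). Its log2 fold change was -0.43 in tra1-AA (SE 0.08, edgeR adjusted p 0.00292) and -0.43 in tra1D (SE 0.08, edgeR adjusted p 0.00382), and both calls were kept in all 6 fits that left out a library. snf59 thus had a larger estimated change than any of the 10 members, downward where arp42 and ssr1 rose. At an unadjusted p under 0.05 edgeR had 5 of the 9 genes in tra1-AA, against 30.5% of all tested genes. DESeq2 had 3 there and limma-voom 4. In tra1D edgeR had 1 of the 9, against 26.5% of all tested genes. The RSC bromodomain gene rsc4 (0.25 in tra1-AA, 0.07 in tra1D) and the Snf5-related RSC gene sfh1 (0.23 and 0.01) had the highest values of the 8 in tra1-AA and did not pass. Of the 9 genes 7 were above 0 in each mutant (77.8%, against 51.1% of all tested genes in tra1-AA and 50.7% in tra1D), with a median log2 fold change of 0.10 in tra1-AA and 0.04 in tra1D.

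In the INO80 list 2 of 15 genes rose in tra1-AA (13.3%, against 15.9% of all tested genes called), iec1 with a log2 fold change of 0.30 (edgeR adjusted p 0.043) and rvb2, an AAA+ ATPase gene of several complexes, with 0.21 (edgeR adjusted p 0.0455). With the replicate number as a block neither passed (adjusted p = 0.0604 for iec1 and 0.0672 for rvb2). Neither passed in edgeR with RLE factors as the scaling (adjusted p 0.052 and 0.061) or in the fit of only the 2 groups (0.0579 and 0.0915). DESeq2 did not call iec1 (adjusted p 0.0563). Each call was kept in 1 of 6 fits that left out a library, with adjusted p up to 0.154 for iec1 (without WT replicate 1) and 0.223 for rvb2 (without tra1-AA replicate 2). In tra1D none of the 15 passed in edgeR, DESeq2 or limma-voom, where edgeR called 11.5% of all tested genes. In each tool 3 had an unadjusted p under 0.05, against 26.5% of all tested genes in edgeR. Each gene was placed in a single list, and rvb2, rvb1, act1 and alp5 were counted under INO80 and not in the SWR1 list. Of the 11 genes of the SWR1 list none passed in either mutant in these tools. The edgeR shares of all tested genes called were 15.9% in tra1-AA and 11.5% in tra1D. At an unadjusted p under 0.05 there was 1 SWR1 gene in tra1-AA and 0 in tra1D. The edgeR shares of all tested genes there were 30.5% and 26.5%. The median log2 fold change was 0.09 in tra1-AA and 0.07 in tra1D for the INO80 list, and 0.02 and -0.02 for the SWR1 list.

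Among 11 other genes of Snf2-family ATPases, mot1 fell and rhp54 rose in both mutants, or 18.2% called, against 15.9% of all tested genes in tra1-AA and 11.5% in tra1D. mot1, whose budding yeast counterpart removes the TATA-binding protein from DNA, averaged 121.8 ± 2.03 CPM in tra1-AA, 127.8 ± 12.8 CPM in tra1D and 203.3 ± 15.7 CPM in WT (SD, n = 3 each). Its log2 fold changes were -0.74 (SE 0.08, edgeR adjusted p 0.000141) and -0.67 (SE 0.08, edgeR adjusted p 0.000259). rhp54, a recombination repair gene of the Rad54 family, had 0.42 in tra1-AA (edgeR adjusted p 0.0078) and 0.36 in tra1D (edgeR adjusted p 0.0212); the tra1D call was lost in 4 of 6 fits that left out a library, with adjusted p up to 0.0823 (without tra1D replicate 3). The other 9 of these genes did not pass in either mutant, and the list's median log2 fold change was 0.03 in tra1-AA and -0.05 in tra1D.

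**Figure D5:**
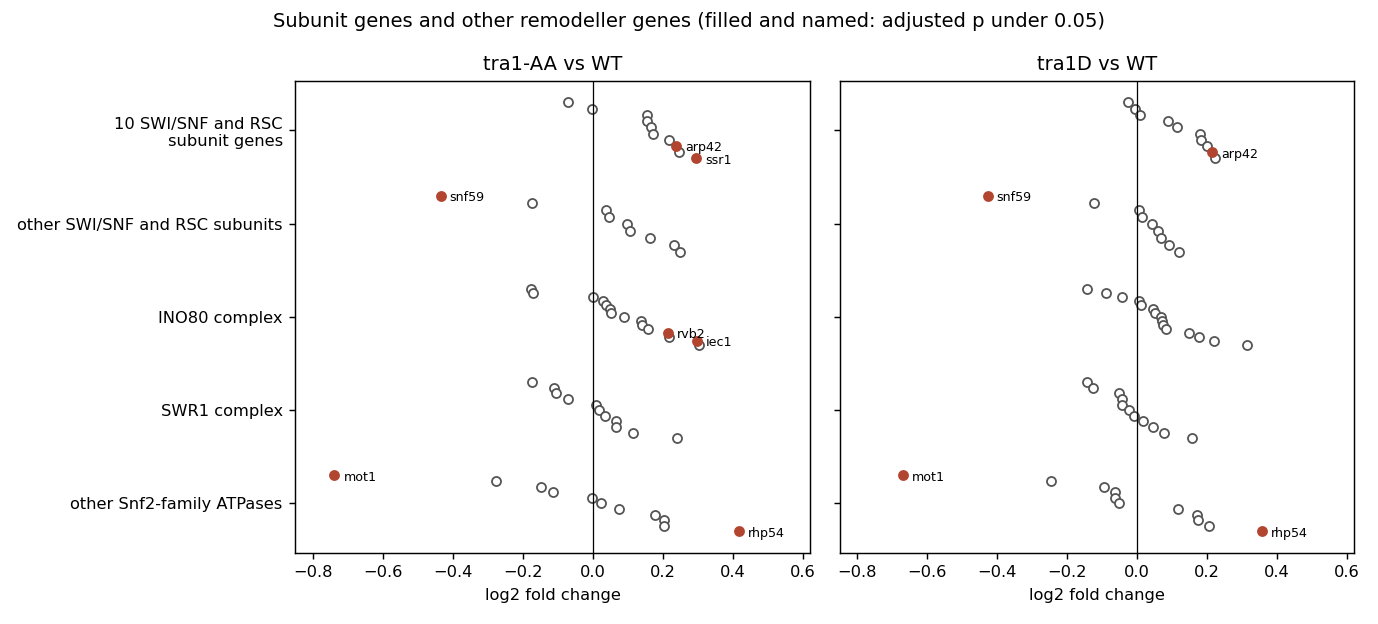
Log2 fold change against WT (horizontal axis) of the 10 subunit genes and of 4 lists of other remodeller genes, in tra1-AA and in tra1D, with 1 point per gene; filled and named points passed an adjusted p of 0.05. snf59 and mot1 lie below 0 in both mutants (-0.43 and -0.74 in tra1-AA), and rhp54 lies above (0.42 in tra1-AA and 0.36 in tra1D).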

How the data were processed

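RNA of 9 libraries was measured by sequencing. The authors aligned with HISAT2 2.1.0 and made raw read counts per gene with HTSeq 0.9.1, per the submitters' processing notes. The authors also deposited a comparison of each mutant with WT, with a log2 fold change, Wald score and p-value per gene; the notes name DESeq2 1.18.1. Their largest log2 values lie below the count ratios, so they may be moderated. Genome build, annotation and strand setting were not given in the sources used here. Gene coordinates are therefore left out.

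Counts of all 9 libraries were fitted with edgeR 4.0.16 (R 4.3.3) using filterByExpr (minimum count 10), TMM factors and the quasi-likelihood test, with Benjamini-Hochberg adjustment over 4913 genes and a threshold of 0.05. SEs and 95% intervals follow from the F statistic. Coding lengths, transcript overlaps and names came from RefSeq (ASM294v3), where 5111 IDs matched by locus tag, 3 by an older ID and 15 not at all. DESeq2 1.42.0, limma 3.58.1 (voom), BLAST 2.17.0 and scipy 1.17.1 served alternatives, sequence comparison and exact tests. On simulated data for tra1-AA against WT over 4903 genes, 26% of 1.25-fold and 84% of 1.5-fold changes were recovered.

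Replicates differed beyond sampling noise (chi-square per degree of freedom 8.41 to 28.8). Deviations of same-numbered tra1-AA and WT libraries correlated at 0.109 to 0.357 in all 3 pairs. An unlike-numbered pair of tra1-AA and WT libraries reached 0.085, and one of tra1-AA and tra1D libraries 0.22. The numbers may therefore pair the tra1-AA and WT libraries, but this check does not establish it. The reported fit has no replicate term, and the fit with the number as a block is an alternative. The members and gene lists were chosen with earlier results of these data known. All 10 members are named; of the other lists the called genes are named, and rsc4 and sfh1 were added after their values were seen. The likeness search named 3 genes for each called member.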

Additional observations from a re-analysis of the deposited data

How the results depend on the processing

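The number of changed genes was 781 in tra1-AA against WT, 566 in tra1D against WT and 2 in tra1-AA against tra1D. With a library left out it ran from 364 (without tra1-AA replicate 2; 398 without WT replicate 1) to 845, from 278 (without tra1D replicate 2; 281 without WT replicate 1 and 323 without tra1D replicate 3) to 497, and from 2 to 5, and DESeq2 called 4 in the last. Among the 10 members, 2 changed in tra1-AA, with 1 in the fit of only the 2 groups (arp42 lost, adjusted p = 0.0539) and 1 to 2 with a library left out. In tra1D 1 member changed, against 0 with RLE factors, with DESeq2, with limma-voom and in the fit of only the 2 groups (3 members at an unadjusted p under 0.05 in each), and 0 in each of the 6 fits with a library left out. With library totals alone, rises made up 59.7% of the calls in tra1-AA and 64.9% in tra1D, against 49.9% and 44.9% with TMM. The ssr1 call in tra1-AA was kept under RLE factors, library totals, no filter, DESeq2, limma-voom, the replicate block and the fit of only the 2 groups.

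Values near 0 changed sign. With library totals alone, ssr2 in tra1-AA was 0.0442, snf22 and sol1 in tra1D were 0.067 and 0.0499, and arp42 between the mutants was -0.0046. With a library left out, log2 fold changes in tra1-AA against WT ran from -0.12 to 0.0096 for snf22 and from -0.0503 to 0.0387 for ssr2. In tra1D against WT they ran from -0.0668 to 0.0734 for snf22, from -0.0265 to 0.0412 for ssr2 and from -0.0708 to 0.017 for sol1. Some values that did not pass also moved. In tra1-AA and tra1D, ssr3 ran from 0.08 and 0.03 (without WT replicate 3) to 0.27 and 0.22 (without WT replicate 2), and snf5 from 0.13 and 0.09 (without WT replicate 1) to 0.31 (without tra1-AA replicate 2) and 0.26 (without WT replicate 3). ssr4 ran from 0.15 (without tra1-AA replicate 2) and 0.11 (without tra1D replicate 1) to 0.31 (without tra1-AA replicate 3) and 0.25 (without tra1D replicate 3). Between the mutants values ran from -0.12 to 0.0013 for snf21, from -0.0126 to 0.0514 for arp42, from -0.0257 to 0.13 for snf5, from -0.0588 to 0.0303 for ssr2 and from -0.0302 to 0.13 for ssr4. The share of snf22 differed from WT by -4.47 to -2.96 percentage points in tra1-AA and by -4.52 to -2.80 in tra1D, and between the mutants by -0.825 to 0.899.

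The replicate block left 718, 514 and 3 changed genes in these comparisons and 2, 1 and 0 changed members; fitted on the 6 tra1-AA and WT libraries alone, an alternative added after seeing the data, it gave 903 genes and 2 members. Same-numbered libraries did not deviate together in tra1D and WT (correlations -0.116 to -0.01) or in tra1-AA and tra1D (-0.203 to -0.017). In tra1D against WT the block lost arp42 (adjusted p = 0.0631) and called snf21 (adjusted p = 0.0372); iec1 and rvb2 lost their tra1-AA calls, as given above, and no other called gene of the members, the remodeller lists or the antisense partners lost its call in tra1-AA. The cause of these changes was not tested.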
